A study of Mus musculus with 12 samples.

Results

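The comparison described here sets the end of a fat cell protocol against its start in MTΔECad, a mouse line of breast cancer cells with a mesenchymal character. It rests on 4 of the 12 RNA libraries of a time course: 2 taken at 0 h and 2 taken at day 10, chosen by their labelled time. Cells of all groups were seeded at 20000 cells per cm2 and left overnight. The 0 h cells had then received neither agent. The day 10 cells had received 200 ng/ml of human recombinant BMP2 for 3 days, then BMP2 and 2 µM rosiglitazone for 4 more days, and finally 3 days of rosiglitazone without BMP2. BMP2 is a bone morphogenetic protein that can commit mesenchymal cells to the fat lineage, and rosiglitazone is an agonist of the nuclear receptor PPARγ. The labels give 1 cell line, with RNA from 2 independent experiments. The series has no untreated cells held for 10 days, so that time in culture, cell density and the agents cannot be told apart.

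Fat cell formation runs from a dividing, spread mesenchymal cell to a resting cell filled by lipid. In known models, BMP signalling and C/EBP factors switch on PPARγ, which with C/EBPα turns on the genes for fatty acid uptake, lipid droplets and insulin response. The cell leaves the cycle, takes its actin fibres apart, builds mitochondria and peroxisomes, and begins to secrete hormones. Mesenchymal breast cancer cells, which have lost epithelial traits, have been used to ask whether such plasticity can be turned towards a resting fat cell.

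Counts were divided by each library's scaled total and are given in the usual CPM unit. The 0 h libraries held 12820802 and 15211035 counts in total, and the day 10 libraries 13632754 and 15486062. Replicate libraries were close together, with correlations of log2 CPM from 0.992 to 0.9946 over the time points. Fold changes, standard errors (SE) and adjusted p-values come from edgeR's quasi-likelihood test over all 12 libraries with Benjamini-Hochberg adjustment, and a gene was called at an adjusted p below 0.05. Values are given for replicates 1 and 2 of each time point. A bulk library cannot tell fewer cells of a kind from less RNA per cell.

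The day 10 libraries carried the defining genes of a white fat cell. The adipsin gene Cfd, which encodes a serine protease of fat, went from 0 and 2 counts to 6863 and 7403. Lep, the gene for leptin, reached only 5.47 and 7.66 CPM from 0.22 and 0.309 CPM. Markers of other lineages differed from list to list. Of 11 leukocyte markers 3 passed the filter, 1 rose and 2 fell, and their summed level was 11.8 and 11.1 CPM at 0 h and 10.4 and 8.96 CPM at day 10. The leukocyte gene Ptprc had 0 counts in the 4 libraries, and the macrophage gene Lyz2 had 2 counts in 1 of the day 10 libraries. Bone and cartilage markers summed to 1749 and 2106 CPM at 0 h and 1473 and 1829.6 CPM at day 10. Most of this was Spp1, the gene for osteopontin, at 1726 and 2079 CPM and then 1405 and 1765 CPM (not called, adjusted p = 0.112). Of the 5 members that passed the filter 3 rose: Alpl, the alkaline phosphatase of bone and other cells, went from no count to 34.8 and 30.2 CPM, at least 321-fold higher, Comp, a cartilage matrix gene, rose by 3.86 (SE 0.48) and Sox9 rose by 0.52 (SE 0.21). The bone factor gene Sp7 had 0 counts in the 4 libraries, and Bglap, for osteocalcin, had 2 and 1 counts at the start and none at the end. Of 9 endothelial markers 3 passed, 1 rose and 1 fell, and the sum went from 0.808 and 0.618 CPM to 3.76 and 3.98 CPM. Pecam1 was the one that rose, from 0 and 0.0618 CPM to 3.4 and 3.98, and Cdh5 fell to no count. Of 9 neuron and glia markers 6 passed and all 6 rose, 4 by at least 4-fold, with sums of 33.7 and 30.7 CPM at 0 h and 108 CPM in both day 10 libraries. Among these 4, Gfap and Sox10 had no count at 0 h and passed the filter only through later times, so their direction was set by the filter. Of all genes tested 42.8% rose. The myelin gene Mbp went from 0.367 and 0.556 CPM to 44.2 and 42.5, while the neuronal gene Rbfox3 had no count. The part of other cell types in these values was not tested. Of 12 mammary luminal markers 6 passed, 1 rose (16.7%) and 3 fell (50%), beside 42.8% and 39.9% of all genes tested. The luminal keratin genes Krt8 and Krt18 were present at both times. Krt8 fell by 1.32 (SE 0.14) and Krt18 fell by 1.99 (SE 0.11) on the log2 scale, and Cldn3 fell by 5.54. Epcam was the member that rose, from no count at 0 h to 59 and 81 counts, so its direction was set by the filter. Elf5 had no count at 0 h and 6 and 4 counts at day 10.

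Most of the transcriptome moved between the 2 times. Of 17090 genes, 12740 passed the filter on low counts, and 10532 of these (82.7%) were called. Called genes were 5448 higher (42.8% of genes tested) and 5084 lower (39.9%) at day 10, and the values of the groups did not overlap for 11742 genes (92.2%). A change of at least 4-fold was called for 1998 genes higher (15.7%) and 1491 lower (11.7%), together 27.4%. The median log2 fold change of all genes tested was 0.06. With library totals alone as the scale, this median shifted by -0.35 and 40.5% in place of 51.7% of called genes were higher, so that a rise below that size changes with the scale. Since 82.7% of genes were called, a list of genes is described below by its direction and its 4-fold share more than by its number of calls.

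The 2 directions were alike in number and unlike in depth. Among called genes, 525 rose by at least 6 on the log2 scale and 249 fell by as much, whereas 1965 rose and 2088 fell by less than 1. Genes without a count at 0 h and with at least 10 CPM at day 10 numbered 92, against 4 genes in the opposite direction. With 3 or fewer counts allowed in the low group these numbers were 171 and 16. The 4 genes without a count at day 10 were Serpinb2, Il18rap, Fyb2 and Klhl30. Serpinb2, a serine protease inhibitor gene, was also the most uneven of them at 0 h, at 84.8 and 50.8 CPM. Such folds are bounds against a floor of 3 counts over the low group, and Serpinb2 was at least 535-fold lower at day 10. Its call was lost in a fit of the 4 libraries alone (adjusted p = 0.0719 in place of 0.00125 by the same test).

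**Figure D1:**
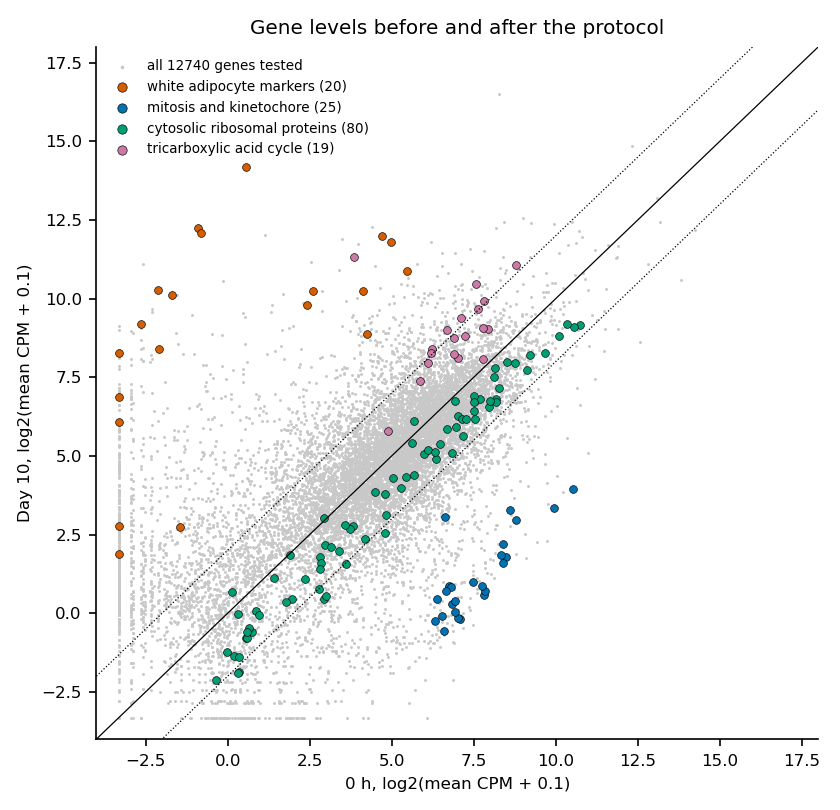
Mean level of each gene tested at 0 h (x axis) and day 10 (y axis), as log2(mean CPM + 0.1), each mean over 2 libraries; coloured points are members of 4 gene lists, the solid line marks equal levels and the dotted lines a 4-fold difference. The 25 mitosis genes lie below the lower dotted line, the 20 white adipocyte markers above the upper one, and most of the 80 cytosolic ribosomal protein genes a little below the solid line.

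The day 10 transcriptome was more uneven. At 0 h, 877 and 881 genes held 50% of all counts, and at day 10, 466 and 500 did. The 10 most abundant genes held 8.76% and 8.57% of counts at 0 h, and 16% and 14.7% at day 10. The most abundant identifier at 0 h, 100861531, could not be matched to a gene symbol. Next came Actb, cytoplasmic actin, with 1.60% and 1.46% of counts. At day 10 the leading genes were Scd1, a fatty acid desaturase (8.22% and 7.20%), the nuclear RNA Malat1 (2.43% and 2.49%) and Fabp4, the fatty acid carrier (1.57% and 1.55%). Fasn, the fatty acid synthase gene, and the glycolytic and pentose phosphate genes Aldoa and Tkt also stood among the 10 most abundant at day 10. The group of the 10 most abundant genes at 0 h held Actb, Flna, Vim, Myh9 and Ahnak, which build or carry the cytoskeleton. Of these, Ahnak was among the first 10 at both times.

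**Figure D2:**
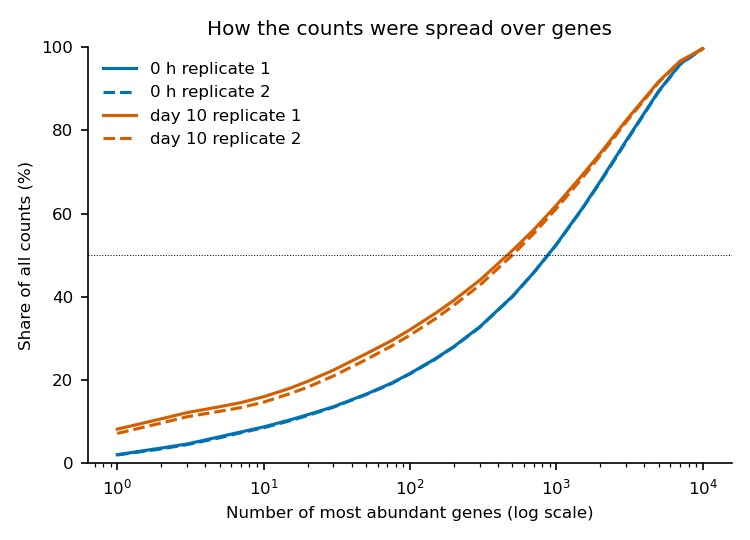
Cumulative share of all counts (y axis, %) held by the most abundant genes of each library (x axis, log scale), for 2 libraries at 0 h and 2 at day 10. The day 10 curves lie above those of 0 h, and the dotted line at 50% is crossed at 466 and 500 genes in place of 877 and 881.

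Genes of the white fat cell rose together. Of 20 listed markers all 20 passed the filter, and all 20 rose by at least 4-fold (median 10.44 on the log2 scale). The 6 markers with 3 or fewer counts at 0 h passed the filter only through later times, and with these at their bounds the median was 8.54. Aqp7, which lets glycerol out of fat cells, had no count at 0 h and 119.6 and 112 CPM at day 10, at least 1149-fold higher. Pck1, which makes the glycerol backbone in fat cells, likewise went from no count to 327 and 291 CPM, at least 3054-fold higher. The lipase genes Lipe and Pnpla2 differed from these in being present at the start. Lipe, hormone-sensitive lipase, stood at 5.14 and 5.32 CPM at 0 h and 936 and 858 at day 10 (log2 fold change 7.42, SE 0.13, adjusted p = 2.32e-17).

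Markers of the fat cell precursor moved in both directions, in shares near those of all genes tested (42.8% higher and 39.9% lower). Of 20 listed, 13 passed the filter, 6 rose (46.2%) and 5 fell (38.5%), with a median of 0.52. Zfp423, a zinc finger factor of committed preadipocytes, went from 1 count in 1 library at 0 h to 46.9 and 42.6 CPM. Pdgfra, the platelet-derived growth factor receptor α, rose from 17.6 and 21.9 CPM to 128 and 155 (log2 fold change 2.84, SE 0.22, adjusted p = 2.54e-06). Its relative Pdgfrb, the β receptor, went the other way, from 258 and 307 CPM to 131 and 146 (fell by 1.03, SE 0.14, adjusted p = 3.14e-05). Ly6a, the surface antigen Sca-1, fell by 1.40 (SE 0.09). Gata2, a factor that holds precursors back, went from 1.25 and 0.495 CPM to no count.

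Genes of secreted products mostly rose. Of 27 listed adipokines and hormones, 22 passed the filter, 20 rose (18 by at least 4-fold) and 2 fell (1 without day 10 replicate 2), with a median of 5.46, or 5.23 with the 10 low-count members at their bounds. Ghrh, which encodes growth hormone-releasing hormone, had no count at 0 h and 673 and 456 CPM at day 10, at least 5523-fold higher. Rarres2, the gene for the adipokine chemerin, reached 331 and 326 CPM from no count, with 33.6% of its exon bases shared with Lrrc61. Nampt, an enzyme of NAD synthesis that is also secreted, was already at 106 and 104 CPM at 0 h and reached 1749 and 1882 (log2 fold change 4.11, SE 0.093). Cxcl12, a chemokine of stromal cells, fell from 231 and 220.1 CPM to 41.9 and 42.2 (fell by 2.42, SE 0.14, adjusted p = 7.36e-09). Of 15 listed complement genes 7 passed and 5 rose. C3, the central complement protein, rose from 0.661 and 1.36 CPM to 220.4 and 201 (log2 fold change 7.65, SE 0.18). Other secreted signals went down. Ccl2, a monocyte chemokine, went from 64.8 and 64.7 CPM to 0.179 and 0.0766, a ratio of 522 (95% exact counting interval 178 to 2536).

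Receptors for hormones and metabolites mostly rose. Of 29 listed, 20 passed the filter, 15 rose (13 by at least 4-fold) and 4 fell, with a median of 6.72, or 4.91 with 10 low-count members at their bounds. Ffar4, a receptor for long fatty acids, had no count at 0 h and 139 and 114 CPM at day 10. Tshr, the thyrotropin receptor, and Oxtr, the oxytocin receptor, also came from no count, to 62.8 and 49.9 CPM and to 64.3 and 71.6 CPM. Ghr, the growth hormone receptor, rose from 39.2 and 43.8 CPM to 684 and 689. Adipor2, an adiponectin receptor, rose from 89.4 and 94.4 CPM to 2141 and 2068. The β3 adrenergic receptor gene Adrb3, a marker of mature mouse fat, stayed near 0 at 0.448 and 0.536 CPM. The receptor genes that fell by at least 4-fold both encode receptors for lysophospholipids. Lpar1, for lysophosphatidic acid, fell from 89.7 and 95.2 CPM to 6.54 and 7.58, and S1pr3, for sphingosine phosphate, from 6.68 and 8.41 CPM to 1.34 and 1.38.

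Genes of the insulin pathway moved in both directions, with more rises. Of 29 listed genes 25 passed, 16 rose and 5 fell, with a median of 1.44. Insr, the insulin receptor, rose from 37.4 and 43.3 CPM to 154 in both libraries, and its docking protein gene Irs1 from 112 and 111 CPM to 297 and 308. The Akt kinases went opposite ways. Akt1 fell from 489 and 457 CPM to 139.7 and 125 (fell by 1.84, SE 0.08, adjusted p = 9.07e-13), while Akt2, the form most tied to glucose uptake, rose from 45.7 and 47.6 CPM to 233 and 228 (2.31, SE 0.073, adjusted p = 1.61e-14). Trarg1, which acts in the traffic of the insulin-driven glucose transporter, went from 0.147 and 0.0618 CPM to 812 and 702. The transporter gene itself, Slc2a4 (GLUT4), reached only 7.7 and 5.67 CPM from no count.

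Receptor tyrosine kinases of the growing cell mostly fell. Of 28 listed 23 passed, 13 fell, 7 rose and 3 were not called (median -0.59). Axl, a receptor linked to mesenchymal cancer cells, fell from 1701 and 1727 CPM to 98.3 and 99.5 (fell by 4.12, SE 0.11, adjusted p = 1.14e-15). Epha2, an ephrin receptor, fell from 241 and 225 CPM to 10.8 and 10.1. Met, the hepatocyte growth factor receptor, fell by 1.34 (SE 0.084) and Egfr fell by 1.47 (SE 0.15). Fgfr1, which fat cells use, rose by 0.89 (SE 0.081).

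Nuclear receptors and the clock rose in part. Of 34 listed nuclear receptors 28 passed, 17 rose and 6 fell (median 1.07). Ppara, the PPAR of fatty acid burning, came from no count to 26.6 and 26 CPM. Nr1h3 (LXRα), a sterol sensor, rose from 0.881 and 0.866 CPM to 173 and 175. Esrra, a receptor that drives mitochondrial genes, rose from 24 and 23.8 CPM to 99.5 and 91.7. Vdr, the vitamin D receptor, fell by 1.04 (SE 0.15). Of 17 listed clock genes 15 passed, 13 rose and 1 fell (median 1.99); without day 10 replicate 2 none fell. The 3 largest rises of the list were in repressors and an output factor of the clock: Per3 rose by 2.76 (SE 0.15), Bhlhe41 by 3.99 (SE 0.14) and Dbp by 4.64 (SE 0.21), from 1.4 and 1.05 CPM to 33.1 and 27.9. Clock itself rose by 0.55 (SE 0.07). Hours of collection are not given in the labels, and the part of circadian phase was not tested.

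Cell division genes fell furthest of the large groups. The machinery of mitosis separates copied chromosomes, and its genes are known to be held by the DREAM complex in resting cells through a short promoter element, the cell cycle genes homology region (CHR), beside CCAAT boxes bound by NF-Y. Replication genes more often carry sites of E2F factors. Promoter stretches of 5 division genes, the 100 bases before the start, are shown with motif letters in capitals. The CCAAT box was searched as CCAAT and CHR as TTTGAA. The E2F site was searched in 3 forms, of which TTTGGCGC is in the stretch of Mcm6. Each motif was searched on both strands, so that its reverse complement is in capitals too, and no motif overlaps another in these stretches. They are read 5′ to 3′ on the gene's strand from RefSeq, build GRCm38.p6. Top2a (chr11:99024190-99024289, minus strand) and Mcm6 (chr1:128359706-128359805, minus strand) are genes of the lists named below, and Cdc20 (chr4:118437344-118437443, minus strand), Ube2c (chr2:164769829-164769928, plus strand) and Kif11 (chr19:37376282-37376381, plus strand) were added because their stretches hold both elements.
Top2a: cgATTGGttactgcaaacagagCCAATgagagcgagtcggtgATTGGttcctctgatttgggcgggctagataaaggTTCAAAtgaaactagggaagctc
Cdc20: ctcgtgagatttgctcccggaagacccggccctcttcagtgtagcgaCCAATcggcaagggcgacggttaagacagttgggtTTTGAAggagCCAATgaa
Ube2c: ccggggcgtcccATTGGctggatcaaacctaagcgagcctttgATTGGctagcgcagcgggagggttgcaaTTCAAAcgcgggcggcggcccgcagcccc
Kif11: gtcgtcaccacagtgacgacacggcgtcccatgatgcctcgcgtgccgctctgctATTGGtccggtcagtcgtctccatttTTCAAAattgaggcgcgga
Mcm6: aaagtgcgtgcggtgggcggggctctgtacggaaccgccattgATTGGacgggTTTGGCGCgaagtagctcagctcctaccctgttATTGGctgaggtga

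Of 25 mitosis and kinetochore genes, all 25 fell by at least 4-fold, with a median of -6.65. Their summed level was 7059 and 6764 CPM at 0 h and 81.6 and 88.2 CPM at day 10, a ratio of 0.0123. Top2a, a topoisomerase of dividing cells, had 1506 and 1456 CPM at 0 h and 14.6 and 15.9 at day 10 (fell by 6.60, SE 0.19, adjusted p = 8.35e-12). Birc5 (survivin) went from 140.0 and 130.0 CPM to 0.627 and 0.919, and Plk1, a mitotic kinase, from 129.7 and 114 CPM to 0.806 and 1.07. Cdc20, which activates the anaphase-promoting complex, went from 3218 and 3598 counts to 12 and 26, and the spindle motor gene Kif11 from 4715 and 5350 counts to 28 and 44. A gene can have more than 1 promoter in the table. In the window from 250 bases before to 50 after the start, CHR letters were in 73.9% of 23 promoters of this list, in 12.1% of 12758 promoters of genes tested and in 17.9% of all 32851. CCAAT letters, on either strand, were in 82.6% of the list, 38.1% of promoters of genes tested and 37.4% of all. In the 100 bases before the start alone these shares were 26.1% against 3.21% for CHR and 73.9% against 22.3% for CCAAT. CHR letters were in 17.6% of promoters of genes at least 4-fold lower and 12.0% of those at least 4-fold higher.

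Of 25 genes for DNA replication and nucleotide synthesis, all 25 also fell by at least 4-fold (median -4.29). Mcm6, a subunit of the replicative helicase, went from 348 and 366 CPM to 4.66 and 4.29 (fell by 6.32, SE 0.13, adjusted p = 2.25e-16). Pcna, the sliding clamp that also serves repair, fell less, from 118 and 121 CPM to 17.4 and 18.4 (fell by 2.74, SE 0.092). Any of 3 E2F forms, TTTCGCGC, TTTGGCGC or TTTCCCGC, was in 37.5% of 24 promoters of this list, 3.53% of promoters of genes tested and 1.84% of all promoters. In the 100 bases before the start the list had 8.33% and genes tested 1.30%. CHR letters were in 12.5% of this list's promoters. A match describes letters and not a bound site.

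Histone genes made in S phase fell with replication. Of 70 listed 55 passed, 50 fell and 4 rose, with a median of -5.04. H2bc18 fell from 827 and 871 CPM to 17.6 and 17.2 (fell by 5.61, SE 0.084). H2bc21 was one of those that rose, from 2.79 and 2.72 CPM to 11.6 and 12.6. Most such histone transcripts lack a poly-A tail, and the labels name both a total RNA kit and poly-A+ RNA, and the part of the RNA selection in their level was not tested.

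The regulators of the cycle divided into a fallen and a risen set. Of 30 listed, 24 fell, 5 rose and 1 was not called (median -1.93). Of the activators, Foxm1 fell by 6.72 (SE 0.18) and Mybl2 fell by 7.74 (SE 0.28). E2f8, a repressor of E2F target genes, fell by 7.78 (SE 0.25), to 0.0896 and 0.46 CPM. E2f1 fell by only 1.02 (SE 0.13), from 27.6 and 28.4 CPM to 13.1 and 14.6. The pocket protein genes Rb1 and Rbl2, which hold E2F factors in resting cells, rose by 1.82 (SE 0.13) and 1.27 (SE 0.11). Of 22 genes for DNA methylation, Polycomb complexes and other chromatin proteins, lamins and HMG proteins among them, 14 fell and 8 rose. Uhrf1, which guides maintenance DNA methylation, fell by 7.04 (SE 0.16), and Dnmt1 fell by 3.42 (SE 0.076). Ezh2, the Polycomb methyltransferase of dividing cells, fell from 86.3 and 81.4 CPM to 16.8 and 14.9, while Ezh1, its counterpart in resting cells, rose from 17.3 and 19.4 CPM to 61.1 and 59.4. Hmga2, an architectural factor of embryonic and cancer cells, went from 156 and 129.8 CPM to 0.0896 and 1.15.

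**Figure D3:**
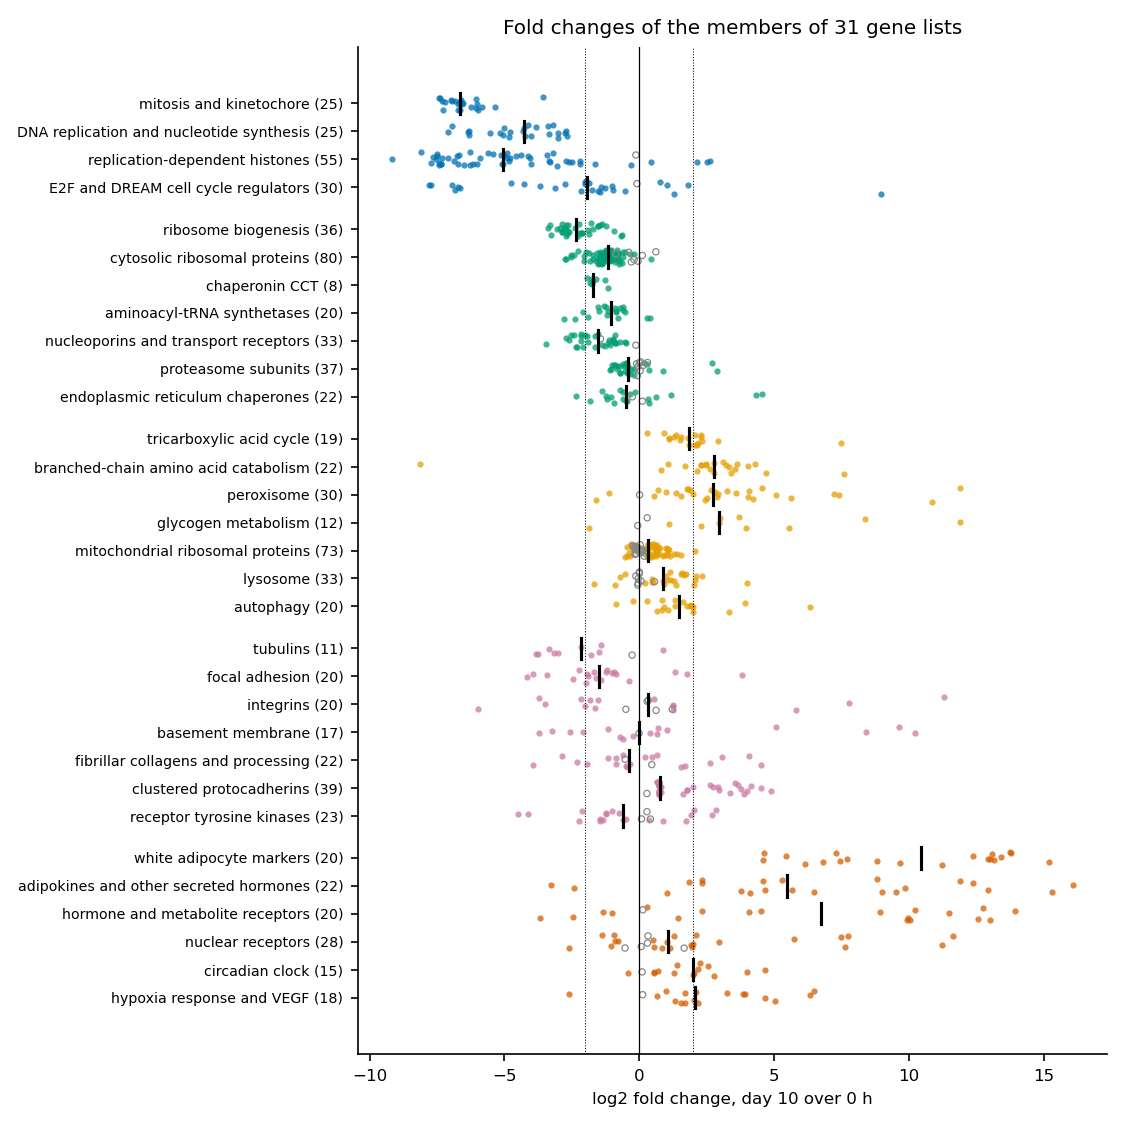
Log2 fold change (x axis) of each tested member of 31 gene lists, with the number of members in parentheses; filled points were called, open points were not, black bars are list medians and dotted lines mark 4-fold. Division lists lie to the left and fuel and fat cell lists to the right. The small positive medians of mitochondrial ribosomal proteins (0.32) and integrins (0.31) were -0.03 and -0.04 with library totals as the scale.

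The apparatus of protein synthesis fell as a block. All 36 ribosome biogenesis genes fell, 24 by at least 4-fold, with a median of -2.33. Npm1, a nucleolar chaperone, went from 727 and 678 CPM to 98.6 and 108 (fell by 2.77, SE 0.079, adjusted p = 4.48e-15), and Nop58, a core protein of snoRNA particles, from 388 and 354 CPM to 39.2 and 36.5. Myc, which drives these genes, fell from 89.9 and 86 CPM to 11.8 and 9.65. Of 83 cytosolic ribosomal protein genes 80 passed, 72 fell and 1 rose, with a median of -1.15. Their summed level fell from 13667 and 13252 CPM to 6062 and 6049, a ratio of 0.450. Rpl4 fell from 1777 and 1677 CPM to 576 and 564. Ribosomal protein genes have many near-identical copies, and how the counting treated reads shared by such copies is not given in the sources used here.

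Helpers of synthesis and transport fell beside it. All 8 genes of the chaperonin CCT, which folds actin and tubulin, fell within a narrow range (median -1.74). Cct2 fell from 935 and 897 CPM to 266 and 273. Of 20 aminoacyl-tRNA synthetases 18 fell and 2 rose (median -1.04), and both rises, Dars (0.38) and Farsb (0.28), were below the shift between scales and were not called with library totals (0.02 and -0.07). Of 33 nucleoporins and transport receptors 31 fell and none was called higher (median -1.54). Nup107, a scaffold nucleoporin, fell from 153 and 149 CPM to 13.5 and 14. Of 26 small nucleolar RNA hosts and related RNAs 18 passed, 13 fell and 4 rose. Gas5 fell by 1.56 (SE 0.079) and Snhg4 fell by 3.99 (SE 0.15), while the nuclear RNAs Malat1 and Neat1 rose by 2.54 (SE 0.097) and 2.77 (SE 0.13).

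Most genes of amino acid supply fell. Of 20 listed genes 18 passed, 14 fell and 4 rose (median -1.60). Phgdh, the first enzyme of serine synthesis, fell from 94.4 and 94.3 CPM to 4.03 and 2.3 (fell by 4.92, SE 0.16), and Shmt2, of mitochondrial one-carbon supply, fell by 3.20 (SE 0.095). Psat1, the second enzyme of that serine path, rose from 621 and 589 CPM to 1082 and 1036 (0.81, SE 0.079, adjusted p = 4.97e-08). The glutamine carrier gene Slc1a5 rose from 24 and 22.6 CPM to 758 and 673, while the arginine carrier gene Slc7a1 fell from 165 and 170.4 CPM to 15.5 and 11.5.

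On the scale used here the sums of lists for protein quality control changed little, while more of their members fell than rose. All genes tested summed to 941231 and 940122 CPM at 0 h and 1220974 and 1185598 CPM at day 10, a ratio of 1.28. A list with a like sum at both times therefore held a smaller share of these counts at day 10. Endoplasmic reticulum chaperones summed to 9119.9 and 8962 CPM at 0 h and 9235 and 8634 CPM at day 10, although 14 of 22 fell and 6 rose. Manf fell by 1.84 (SE 0.082) and Hyou1 fell by 1.38 (SE 0.088). Ero1a, an oxidase for disulfide bonds that also responds to low oxygen, rose from 83.9 and 83.8 CPM to 1871 and 1496, and Dnajb9 from 18.6 and 15.6 CPM to 382 and 410.5. The rises of Ero1a and Dnajb9 are part of the sum given for these chaperones. Proteasome subunits summed to 5800.1 and 5675 CPM at 0 h and 5571 and 5585 CPM at day 10, a ratio of 0.972. Of 39 listed 37 passed, 23 fell and 6 rose, with a median of -0.41. With library totals as the scale 31 proteasome genes fell and 3 rose, and 16 endoplasmic reticulum genes fell and 4 rose. Psma1, a subunit of the core ring, rose from 172 and 173 CPM to 1241 and 1277 (2.87, SE 0.095, adjusted p = 2.8e-14). Without Psma1 the sum went from 5628 and 5502 CPM to 4330.1 and 4308 CPM, a calculation added after its value was seen. Psmc3 of the cap fell by 1.10 (SE 0.069).

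Genes of fuel use rose. All 19 genes of the tricarboxylic acid cycle rose, 9 of them by at least 4-fold, with a median of 1.84, and with library totals as the scale 18 did. Cs, citrate synthase, rose from 452 and 432 CPM to 2215 and 2091 (2.28, SE 0.086, adjusted p = 1.39e-13). Pcx, pyruvate carboxylase, which feeds the cycle in lipid-making cells, rose from 12.5 and 16.3 CPM to 2765 and 2373 (7.47, SE 0.19). CCAAT letters were in 72.7% of 22 promoters of this list as well. Of 22 genes for the breakdown of branched-chain amino acids 21 rose, 18 by at least 4-fold (median 2.76). Bckdha, of the committed dehydrogenase, rose from 22 and 23.7 CPM to 394 and 348, and Aldh6a1, of valine breakdown, from 4.11 and 5.56 CPM to 911 and 952.

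Peroxisome genes had a higher median change than those of the mitochondrial ribosome, a difference that was not tested. Of 30 listed peroxisome genes 27 rose, 18 by at least 4-fold, and 2 fell (median 2.73). Cat, catalase, rose from 122 and 120.4 CPM to 2901 and 2725. The 2 that fell, Agps and Far1, act in ether lipid synthesis; Agps fell by 1.60 (SE 0.084) and Far1 fell by 1.14 (SE 0.091). Gnpat, of the same pathway, rose by 2.50 (SE 0.072). For mitochondrial ribosomal proteins the median was 0.32, with 44 of 73 tested higher and 11 lower, and with library totals as the scale 25 were higher and 26 lower (median -0.03). Leaving out any of the 4 libraries left 7 or 8 called lower. Of 22 genes of mitochondrial biogenesis and import 10 rose (45.5%) and 5 fell (22.7%), beside 42.8% and 39.9% of all genes tested. Their median was 0.09, or -0.26 with library totals. The coactivator gene Ppargc1a rose from 0.441 and 0.742 CPM to 32.7 and 32.9, while Nrf1, a factor of nuclear genes for mitochondria, fell from 60.5 and 59.8 CPM to 23.3 and 21.1.

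Stores other than fat, and their turnover, rose as well. Of 15 listed glycogen genes 12 passed, 9 rose and 1 fell (median 2.97). Gys2, known as the liver form of glycogen synthase, came from no count to 31.5 and 30.3 CPM. Of 36 listed lysosome genes 33 passed, 21 rose and 4 fell (median 0.88), and with library totals 17 rose and 11 fell. Lipa, the acid lipase, rose from 66.1 and 72.4 CPM to 1185 and 1017, and Ctsd, cathepsin D, from 427 and 496 CPM to 1969 and 1926. Ctsl, cathepsin L, was at 211 and 207 CPM at 0 h and 209 and 207 CPM at day 10; with library totals it was called lower, at -0.36. Of 20 autophagy genes 18 rose and 2 fell (median 1.48); 1 fell without 0 h replicate 1 or either day 10 library. Bnip3, a mitophagy receptor, rose from 11.4 and 12.5 CPM to 971 and 976, and Pink1, a kinase that marks damaged mitochondria, from 17.8 and 22.1 CPM to 309.6 and 301.

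Redox defence genes divided. Of 28 listed antioxidant genes 26 passed, 15 rose (57.7%) and 10 fell (38.5%), beside 42.8% and 39.9% of all genes tested (list median 0.51). Mgst1, a membrane glutathione transferase, rose from 8.96 and 11.9 CPM to 1868 and 1966 (7.51, SE 0.32, adjusted p = 5.56e-08). Txnrd1, thioredoxin reductase, fell from 759.9 and 661 CPM to 50.2 and 47.8 (fell by 3.86, SE 0.12, adjusted p = 9.07e-14), and Gsr, glutathione reductase, fell by 1.64 (SE 0.089). Of 123 listed cytochrome P450 and glutathione transferase genes 35 passed, 25 rose and 8 fell. Cyp2f2 came from no count to 59.5 and 55.8 CPM, and Gsta1 fell from 5.58 and 3.77 CPM to 1 count in 1 library.

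Genes of the response to low oxygen and of the VEGF family, listed together, mostly rose. Of 19 listed 18 passed, 16 rose, 1 fell and 1 was not called (median 2.06). Vegfa, the main angiogenic factor, rose from 81.5 and 93.1 CPM to 1302 and 1176 (3.83, SE 0.096, adjusted p = 8.72e-16). Vegfc, of lymph vessels, was the member that fell, and fell by 2.62 (SE 0.17). Pdk1, a kinase that inhibits pyruvate dehydrogenase, rose by 5.02 (SE 0.19), and Ldha by 1.33 (SE 0.087).

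Genes of the cytoskeleton and its anchors mostly fell. Of 17 listed tubulins 11 passed, 9 fell and 1 rose (median -2.15). Tubb5 fell from 2934 and 2747 CPM to 339 and 300.4, and Tubb2a rose by 0.88 (SE 0.11). Of 20 focal adhesion genes 17 fell and 3 rose (median -1.51), and their summed level went from 16639 and 16716 CPM to 3970.5 and 3859. Flna, an actin crosslinker, fell from 6101 and 6146 CPM to 379.7 and 414 (fell by 3.95, SE 0.11, adjusted p = 3.89e-15), and Zyx, zyxin, fell by 4.17 (SE 0.20). The 3 that rose were Tln2, Tns1 and Lims2. Tln2, the second talin, rose from 153 and 171 CPM to 411 and 400.2. Among actins Actb went from 15089 and 13754 CPM to 1582 and 1475, and the smooth muscle actin gene Acta2 from 2047 and 2004 CPM to 38.3 and 29.6 (fell by 5.90, SE 0.35). Actg1 was low at both times and fell by 2.38 (SE 0.17), with near-identical copies that could take its reads.

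Genes for matrix receptors and for the matrix moved in both directions, in shares near those of all genes tested (42.8% higher and 39.9% lower). Of 26 listed integrins 20 passed, 7 rose (35%) and 8 fell (40%). Itga5, a subunit of the fibronectin receptor, fell from 193 and 209.7 CPM to 15.3 in both libraries, Itgb1, its partner, fell by 1.63 (SE 0.088), and the ligand gene Fn1 from 1339 and 1953 CPM to 488 and 529.6 (fell by 1.69, SE 0.45, adjusted p = 0.0114). The call for Fn1 was lost without 0 h replicate 2 (adjusted p = 0.0538) or without day 10 replicate 1 (adjusted p = 0.0598). Among basement membrane genes, of which 17 of 18 passed, 8 rose and 8 fell (47.1% each). Lamb3, of laminin 332, rose from 0.808 and 0.371 CPM to 207 and 181. Col15a1 rose from 0.147 and 0.0618 CPM to 144 and 114, and Col18a1, its close relative, fell from 242 and 277 CPM to 29.1 and 25.8. Col4a1 was at 1792 and 1822 CPM at 0 h and 1916 and 1661 at day 10. Of 22 genes for fibrillar and collagen VI chains and their processing 9 rose (40.9%) and 11 fell (50%). The 3 collagen VI genes rose: Col6a1 from 215 and 364 CPM to 4952 and 4751, Col6a2 by 4.50 (SE 0.43) and Col6a3 by 2.61 (SE 0.23).

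Genes of caveolae, protocadherins, keratins and carriers are given by family. Of 10 listed caveola genes 8 passed, 6 rose and 1 fell. Cav1, the coat protein of caveolae, abundant in fat cells, rose from 622 and 653 CPM to 1650.3 and 1728. Of 57 clustered protocadherins 39 passed and 38 rose, with a median of 0.78, and none was called lower. Pcdhgc3 rose from 163 and 159.6 CPM to 255 and 247. These genes overlap and share exons, so their counts are not independent of each other. Of 49 listed keratins 12 passed, 6 rose (50%) and 4 fell (33.3%), beside 42.8% and 39.9% of all genes tested. Krt7 fell from 825 and 865 CPM to 3.94 and 5.67 (fell by 7.44, SE 0.29), while Krt79 went from 1 count to 492 and 468 CPM. Of 384 listed solute carriers 198 passed, 101 rose (51%) and 65 fell (32.8%), beside the same shares of all genes tested. Slc25a34, a mitochondrial carrier, went from 1 count in each 0 h library to 355 and 330.1 CPM, and Slc36a2, an amino acid carrier of fat, from 1 count to 279 and 264. Slc2a5, the fructose carrier, fell from 15.3 and 15.8 CPM to 0.0896 and 0.536.

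Genes of cell death and antigen display moved in both directions. Among all genes tested 42.8% rose and 39.9% fell. For tested Bcl2 family genes these shares were 41.7% and 58.3%, so the share that rose was near that of all genes. For tested MHC class I genes they were 76.9% and 15.4%. Of 16 Bcl2 family genes 12 passed, 7 fell and 5 rose; 3 rose without 0 h replicate 1 or either day 10 library. Of the guardians, which hold cell death back, Bcl2 fell by 2.45 (SE 0.21) and Bcl2l1 fell by 1.25 (SE 0.096), whereas Bcl2l2 rose by 0.91 (SE 0.074). Of the effectors, Bax fell by 1.74 (SE 0.12) and Bak1 fell by 1.33 (SE 0.11). Bbc3 (PUMA), another member of the family, rose from 4.85 and 4.45 CPM to 25.4 and 20.1. Of 13 genes for display on MHC class I, 10 rose and 2 fell (median 1.10); 1 fell without 0 h replicate 2 or day 10 replicate 1. B2m, the light chain, rose from 298 and 295 CPM to 646 and 625. H2-D1 rose by 0.35 (SE 0.077), and this direction flipped to -0.01 with library totals.

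Within families, related genes took opposite or unequal paths. Levels of different genes are compared here as CPM per kb of the gene length in the deposited table. Among long-chain acyl-CoA synthetases, Acsl5 was highest at 0 h (105 CPM per kb) and Acsl1 at day 10 (870.1 CPM per kb). Acsl1 rose by 6.82 (SE 0.17), whereas Acsl5 fell by 1.62 (SE 0.11) and Acsl4 fell by 0.89 (SE 0.12). Among branched-chain aminotransferases, the cytosolic Bcat1 fell from 128 and 110.2 CPM to 0.538 and 0.306 (fell by 8.14, SE 0.18, adjusted p = 3.05e-16). The mitochondrial Bcat2 rose from 16.6 and 15.2 CPM to 66.4 and 72 (2.12, SE 0.13, adjusted p = 1.42e-10). Bcat1 was the 1 gene of the branched-chain list that fell.

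Glucose and pyruvate enzymes showed the same kind of exchange. Hk1 stood at 225 and 220.1 CPM at 0 h and 244 and 233 at day 10 and was not called (0.10, or -0.26 and called with library totals), while Hk2, the hexokinase of insulin-sensitive tissue, rose from 81.1 and 74 CPM to 616 and 562. Slc2a1 (GLUT1) remained far above Slc2a4 per kb at day 10, at 133 against 2.37 CPM per kb. Of the pyruvate dehydrogenase kinases Pdk3 was highest per kb at 0 h (24.3) and fell by 1.19 (SE 0.099). Pdk4, Pdk1 and Pdk2 rose by 4.87 (SE 0.18), 5.02 (SE 0.19) and 5.44 (SE 0.16). Pck1, the cytosolic form, rose as given above and Pck2, the mitochondrial form, fell by 0.79 (SE 0.11).

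Lipid droplet coats were gained at unequal levels. At day 10 the order per kb was Plin2 (1616), Plin4 (869), Plin1 (640.0), Plin3 (37.2) and Plin5 (26.5), against Plin2 (88.3), Plin3 (25.6) and Plin4 (3.62) at 0 h. Plin2, the coat of many cell types, therefore led at both times, and Plin3 rose by only 0.54 (SE 0.097), or 0.18 and not called with library totals. Among CIDE proteins, which fuse droplets, Cidec was at 2504 CPM per kb at day 10 and Cidea at 199. Cidea and Cox8b are often used as brown fat markers. Cidea had no count at 0 h and 235 and 227 CPM at day 10, and Cox8b no count and 223 and 211 CPM, while the defining brown fat gene Ucp1 was read by 1 count in all 4 libraries together. Ucp2 and Ucp3 rose, Ucp3 from 1 count to 122 and 109 CPM.

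Among water channels, D cyclins and myosins, some forms fell while others rose or held. Aqp5, a channel of gland epithelium, fell from 419.5 and 375 CPM to 38 and 38.8, and Aqp1 fell by 2.94 (SE 0.13). Ccnd1, cyclin D1, fell from 1326 and 1261 CPM to 45 and 49.9, Ccnd2 came from no count to 2.96 and 5.05 CPM, and Ccnd3 was not called, at 40.4 CPM in both 0 h libraries and 40.8 and 35.4 CPM at day 10 (called lower with library totals, at -0.44). Myh9, the main nonmuscle myosin, fell from 3723 and 3853 CPM to 531 and 509, and Myh10 rose by 0.55 (SE 0.074). Myh9 was still the higher of the 2 at day 10, at 70.0 against 52.2 CPM per kb.

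**Figure D4:**
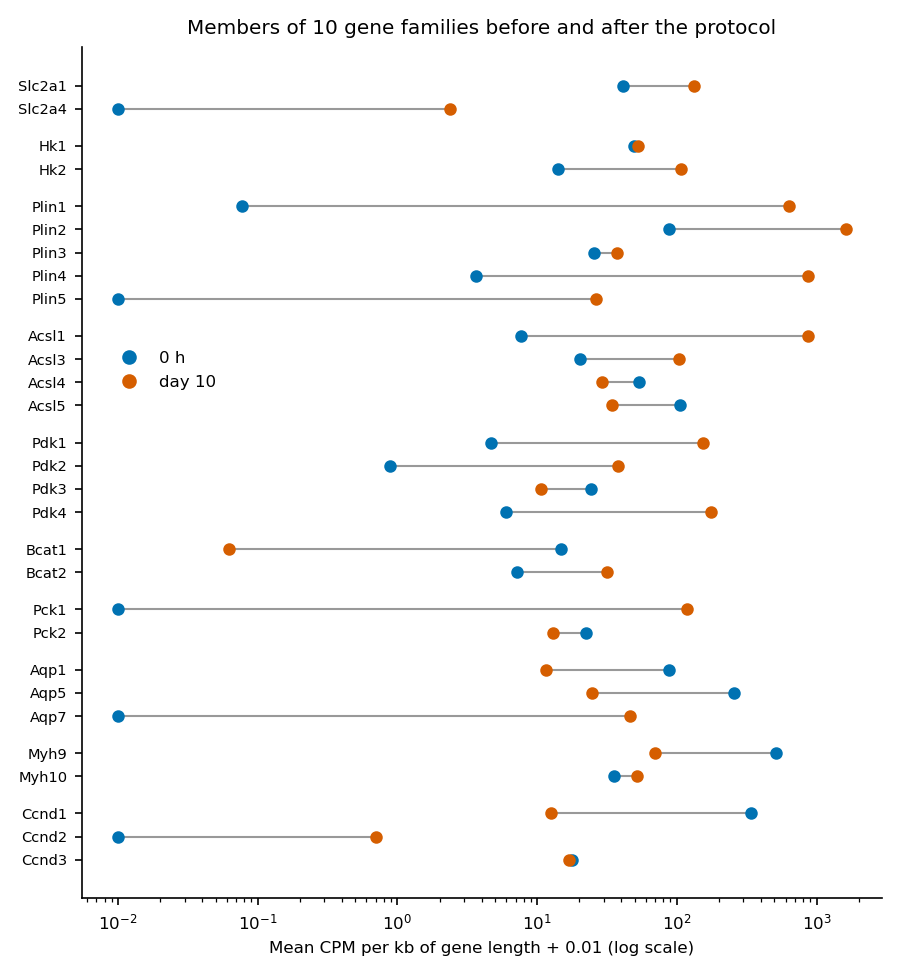
Mean level per kb of gene length at 0 h and at day 10 (x axis, CPM per kb + 0.01, log scale) for members of 10 gene families, with 2 libraries per mean; points at 0.01 had no count. Acsl1, Pdk4, Hk2, Bcat2, Pck1 and Aqp7 lie higher at day 10 while Acsl5, Pdk3, Bcat1, Pck2 and Aqp5 of the same families lie lower; the small shift of Hk1 changed sign with the scale.

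The level at day 10 was reached by different routes. Mean CPM over the 2 libraries of each time point are given here as a description, without a test between times. Top2a was at 1481 CPM at 0 h, 33.4 at day 3 and 15.3 at day 10, so that most of its fall lay within the days of BMP2 alone. Rpl4, in contrast, was at 1727 CPM at 0 h, 1858 at day 3 and 569.9 at day 10. Cidec was at 0.468 CPM at 0 h and 0.674 at day 3, and then at 4307 at day 10. Bckdha was already at 64.7 CPM at day 3, from 22.8 at 0 h. Col6a1 passed through a peak of 6327 CPM at day 5 before 4851 CPM at day 10. Col4a1, alike at 0 h and day 10, was at 1031 CPM at day 3, below both ends.

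**Figure D5:**
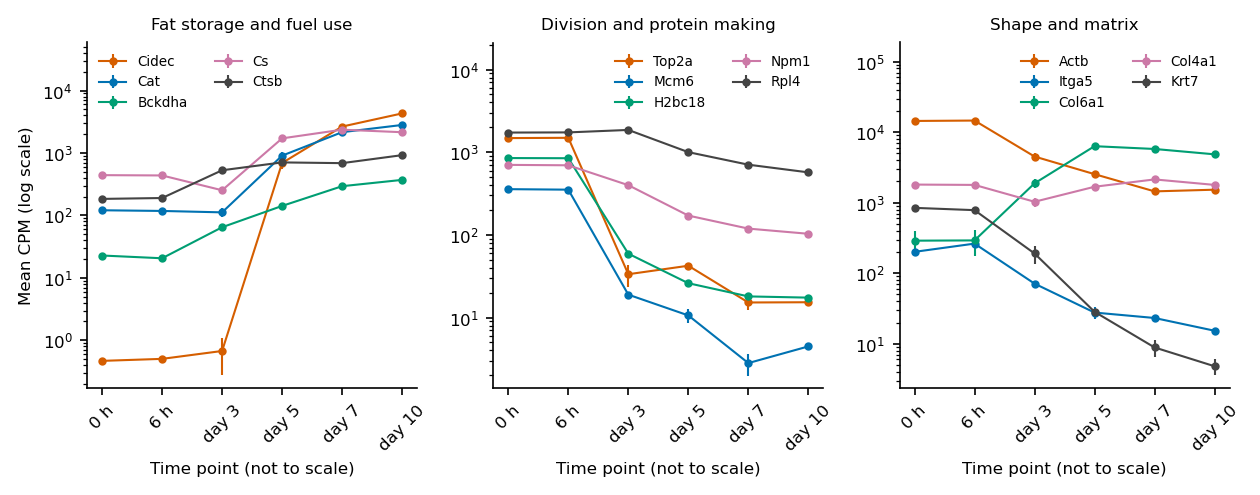
Mean CPM (y axis, log scale) of 15 genes at the 6 time points (x axis, not to scale), with error bars of 1 SD over 2 libraries. Cidec stays below 1 CPM up to day 3, Top2a and Mcm6 have fallen by day 3, and Col4a1 dips at day 3 between like levels at 0 h and day 10.

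Some abundant genes held their level. For 1618 genes, 12.7% of those tested, the 95% interval of the log2 fold change lay within -0.5 to 0.5. Among the 8 most abundant were Rpph1, Thbs1, Col4a1, Eif4g2, P4hb, Canx and Mbnl1. Rpph1, the RNA of ribonuclease P, was at 8937 and 8542 CPM at 0 h and 9666 and 9334 at day 10. Thbs1, thrombospondin 1, was at 2920.1 and 3295 CPM and at 3642 and 3092 CPM. P4hb, protein disulfide isomerase, was at 1162 and 1233 CPM and at 1341 and 1251 CPM. Since steadiness depends on the scale, Rpph1, Thbs1 and P4hb were called lower with library totals, at -0.23, -0.24 and -0.24, as was Col4a1 at -0.37.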

How the data were processed

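RNA was sequenced from 12 libraries, 2 per time point, from 2 independent experiments, and p-values measure the spread between these. The authors deposited whole-number read counts for each gene, not normalized; per the submitters' processing notes the authors used STAR and mm10. Not given in the sources used here are the counting tool, its strand setting and its annotation. Gene numbers were matched to RefSeq symbols for 17045 of 17090 genes, and 41 had no symbol.

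The 12 libraries were fitted in 1 model with edgeR 4.0.16 (R 4.3.3; TMM factors, filterByExpr, robust quasi-likelihood test, prior count 0.125), with a mean per time point and the contrast of day 10 against 0 h. P-values were Benjamini-Hochberg adjusted over 12740 genes, with a threshold of 0.05. The procedure was tested on simulated data, where 77.6% of 1.5-fold changes were recovered and 6 of 183 calls were false. Only a small share of genes was changed there, unlike here. The error rate with most genes changed was therefore not tested. Counts of 3 or fewer in a group give a bound against a floor of 3 counts, or a ratio with an exact 95% interval; intervals and bounds cover counting error only. Alternatives changed the scaling, the filter, the test (DESeq2 1.42.0), the libraries fitted, the prior count and the promoter window. Members and lists were chosen with earlier results of these data known. Named genes were key members and families of those lists, each list's largest changes and most abundant members, and the largest rises and falls, most abundant, group-restricted and steady genes overall; Cdc20, Ube2c and Kif11 were added later. Promoters are from RefSeq (GRCm38.p6) and were found for 10038 genes tested. By GENCODE exons, the genes Aldh6a1, Bak1, Ccnd1, Ctsb, Dbp, Far2, Lipe, Pcdhgc3 and Rarres2, among those named or plotted, share more than 10% of their exon bases with another gene, so their counts are uncertain. Some genes that the rule would name are not reported here.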

Additional observations from a re-analysis of the deposited data

How the results depend on the processing

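The number of genes called, and of those past 4-fold, stayed within 1.5 times of their values under all 13 alternatives; with 1 library left out, 5197 to 5243 genes were higher and 4809 to 4867 lower. With library totals alone 40.5% of calls were higher in place of 51.7%. Libraries with the same replicate number shared little deviation between time points (correlations from -0.091 to 0.193). This cannot show whether the libraries were paired by design. With a replicate block 5470 genes were higher and 5106 lower. Of 451 named genes tested, 37 changed their call in some alternative. In 43 combinations of a gene and an alternative the gene did not pass the filter on low counts, or was not fitted. With library totals alone the sign turned for Hk1 (-0.26), Rpph1 (-0.23), Thbs1 (-0.24), P4hb (-0.24), Farsb (-0.07) and H2-D1 (-0.01). The same scale gave 0 cytosolic ribosomal protein genes and 0 tRNA synthetases higher, 3 proteasome subunits, 3 Bcl2 family genes and 5 basement membrane genes higher, and 25 mitochondrial ribosomal protein genes higher and 26 lower. It gave 2 genes lower in each of the complement, clock, glycogen and hypoxia lists, 11 lysosome genes lower and 12 genes of mitochondrial biogenesis lower. A mean of at least 1 CPM left 3 precursor markers and 1 adipokine lower and 2 histones higher. DESeq2 gave 1 adipokine and 1 autophagy gene lower, and the 4 libraries alone 1 adipokine lower and 0 cytosolic ribosomal protein genes higher. Leaving out 1 library gave 1 to 2 adipokines, 0 to 1 clock genes, 7 to 8 mitochondrial ribosomal protein genes, 1 to 2 autophagy genes and 1 to 2 MHC class I genes lower, and 0 to 1 cytosolic ribosomal protein genes and 3 to 5 Bcl2 family genes higher. In the 100 bases before the start, 26.1% of mitosis promoters held CHR letters and 8.33% of replication promoters an E2F form. For alternatives other than the smaller window and smaller sets of genes or libraries, the cause was not tested. Genes with 3 or fewer counts in a group allow only bounds or wide ratios.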

Other observations

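Some of the largest changes belonged to none of the lists above. Hsd11b1, which regenerates active glucocorticoid, had 1 count in each 0 h library and 24011 and 28760 counts at day 10, a ratio of 32458 with an exact 95% counting interval of 8985 to 268025. Adig, which encodes adipogenin, came from no count to 276 and 277 CPM, at least 2748-fold higher. Far2, which makes fatty alcohols, came from no count to 344 and 319 CPM, at least 3279-fold higher, with 11.4% of its exon bases shared with Ergic2. Cmbl, a hydrolase gene, came from no count to 512 and 508 CPM, at least 5060.4-fold higher. Mfng, a glycosyltransferase that modifies Notch receptors, came from no count to 165 and 150.3 CPM, at least 1558-fold higher. In each of these the replicates lay close together beside the size of the change.

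Among the falls, Tnnt2, cardiac troponin T, went from 119 and 112 CPM to 0.179 and 0.0766, a ratio of 931 (exact 95% counting interval 318 to 4514). Pif1, a DNA helicase gene, went from 609 and 764 counts to 0 and 1. Il1rl1, the receptor of interleukin 33, went from 17.3 and 25 CPM to 0 and 0.0766. Ramp3, a partner of calcitonin family receptors, went from 22.8 and 19.5 CPM to 0.0896 and 0. The S phase histone gene H2ac12 went from 54.2 and 50.1 CPM to 0.0896 and 0.0766. Il18rap, an interleukin 18 receptor chain, went from 19.4 and 19.5 CPM to no count, at least 157-fold lower.

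A few genes used as markers of other tissues were read at day 10. Apoc3, an apolipoprotein gene of liver, came from no count to 95.9 and 79.3 CPM, the 1 member of 7 liver markers that passed the filter on low counts. Sox10, a factor of glia and gland cells, came from no count to 4.48 and 5.21 CPM. Krt15, a basal keratin, went from 1 count in each 0 h library to 27.3 and 36.8 CPM.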
